A study of Mus musculus with 24 samples.

Results

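The liver genes described here are 10 members of the growth hormone and STAT5 programme, taken by gene symbol: Cyp4a12a, Hsd3b5, Elovl3, Slco1a1, Cyp7b1, Cyp2d9, Ugt2b38, Socs2, Igf1 and Ghr. Every probe set annotated to one of these symbols was used, which gave 17 of the 22690 probe sets on the array and 10 of 12393 genes. All 10 were among the 9167 genes bright enough to be tested. Liver RNA was measured on 1 Affymetrix array per mouse in 24 mice labelled as female, from a mixed C57BL/6x129Sv background. The study asked which genes mouse and human CAR turn on. CAR, the constitutive androstane receptor, is a nuclear receptor encoded by Nr1i3 that switches on drug-metabolising genes when foreign compounds reach the liver.

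Wild-type mice had mouse CAR only, and knockout mice had the mouse CAR gene ablated on both alleles. Human CAR mice expressed human CAR from a transgene with the albumin promoter of the mouse, which is active in hepatocytes, and lacked mouse CAR like the knockouts, since the transgenic line was bred to knockout mice over 2 cycles. Every mouse was injected intraperitoneally on 3 days and killed 6 h after the last injection. Corn oil was the vehicle. Phenobarbital (phenobarbitol in the labels), an anticonvulsant described in the labels as sending either receptor to the nucleus, was given at 100 mg/kg per day, and CITCO, a ligand of human CAR, at 30 mg/kg per day. TCPOBOP, a ligand of mouse CAR that mice do not metabolise, was given at 3 mg/kg once, on day 1, with corn oil afterwards. The 3 genotypes and 4 treatments made 12 groups of 2 mice. Ages, litters and array dates of the animals were not stated in the sources used here. With 2 mice a group the precision of every group value is low.

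Growth hormone from the pituitary binds its receptor on hepatocytes, the kinase JAK2 is activated, and the transcription factor STAT5 is phosphorylated and moves to the nucleus. Male rodents release the hormone in pulses and females more evenly, and the pulses drive a set of male-biased liver genes through STAT5b. Igf1 and Socs2 are induced by the same pathway in both sexes. Ghr encodes the receptor, Socs2 a feedback inhibitor of the signal and Igf1 the circulating growth factor. The other 7 members are male-biased genes: Cyp4a12a (fatty acid and arachidonic acid hydroxylation), Hsd3b5 (steroid metabolism), Elovl3 (elongation of very long chain fatty acids), Slco1a1 (uptake of organic anions), Cyp7b1 (oxysterol 7-alpha hydroxylation), Cyp2d9 (testosterone 16-alpha hydroxylation) and Ugt2b38 (glucuronidation).

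Promoter sequences are shown for 4 male-biased members because these genes deviated together between mice of a group, as described further on. RefSeq windows on GRCm38.p6 were found for 6 of the 10 members, with 7 windows in all, and Cyp4a12a, Elovl3, Cyp7b1 and Socs2 are named only. Each window holds the 250 bases before an annotated transcription start. The Igf1 window and 1 of the 2 Ghr windows lie inside the annotated span of their gene, and the 4 windows shown lie outside it. The STAT5 motif TTCNNNGAA, its own reverse complement and so searched on both strands, was present in 0 of the 7 windows and in 7.02% of 32851 mouse windows of that length. The same half-sites with 1 more base between them were present in 1 of 7 and in 5.85% of all windows. TATAA, searched on the sense strand between positions -40 and -16, was present in 2 of 7 and in 3.52% of all. A match describes letters in a window and not a bound site. The Hsd3b5 window, on the minus strand at chr3:98645535-98645784, holds these wider-spaced half-sites from position -203, in capitals.
Hsd3b5: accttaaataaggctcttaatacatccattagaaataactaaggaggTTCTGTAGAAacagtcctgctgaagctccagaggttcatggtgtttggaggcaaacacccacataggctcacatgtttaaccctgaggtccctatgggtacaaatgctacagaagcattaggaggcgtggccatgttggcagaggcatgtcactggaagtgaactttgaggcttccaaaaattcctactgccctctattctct
The windows of Slco1a1 (minus strand, chr6:141946963-141947212) and Cyp2d9 (plus strand, chr15:82452127-82452376) hold TATAA from positions -31 and -26, in capitals.
Slco1a1: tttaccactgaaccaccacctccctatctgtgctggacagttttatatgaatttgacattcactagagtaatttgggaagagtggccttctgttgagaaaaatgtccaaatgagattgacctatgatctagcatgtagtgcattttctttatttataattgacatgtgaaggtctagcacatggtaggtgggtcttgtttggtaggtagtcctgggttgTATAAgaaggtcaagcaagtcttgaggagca
Cyp2d9: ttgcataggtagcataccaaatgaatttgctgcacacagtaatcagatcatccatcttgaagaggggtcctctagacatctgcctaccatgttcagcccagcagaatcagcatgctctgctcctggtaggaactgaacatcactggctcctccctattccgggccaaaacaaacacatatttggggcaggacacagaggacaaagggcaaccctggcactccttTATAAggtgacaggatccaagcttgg
The window of Ugt2b38 (minus strand, chr5:87424204-87424453) held none of the 3 motifs and has no capitals.
Ugt2b38: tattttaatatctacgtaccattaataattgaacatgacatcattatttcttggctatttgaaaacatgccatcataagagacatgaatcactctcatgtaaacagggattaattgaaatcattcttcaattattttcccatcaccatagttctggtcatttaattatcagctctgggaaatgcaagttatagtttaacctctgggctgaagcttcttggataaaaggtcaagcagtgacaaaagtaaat

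Values are log2 expression, as deposited after RMA, so a difference of 1 is a 2-fold change. A gene was said to rise, fall or change where the Benjamini-Hochberg adjusted p of limma, over the 9167 genes, was under 0.05. The 3 ligand comparisons of a genotype share its 2 corn oil arrays. The dim limit is the 40th percentile of an array's probe sets. The Nr1i3 transcript was at 6.84 to 8.0 in the 8 wild-type mice and at 5.03 to 5.60 in the other 16. The hepatocyte transcript Alb lay between 13.02 and 13.53 on all arrays. Xist, which female cells transcribe from their inactive X chromosome, was read by 3 probe sets. Of these, 2 lay under the dim limit on all 24 arrays (2.86 to 3.38 and 3.00 to 3.44), and the third lay between 4.72 and 5.51. The Y-linked genes Kdm5d and Uty were under the dim limit on all 24 arrays, and Eif2s3y (4.33 to 5.30) on 16. Of 18 measured female-biased liver genes 4 were under the dim limit on all 24 arrays, and of 11 other male-biased genes 0 were. The dim Xist sets and the bright male-biased genes are unlike the labelled sex, and the mostly dim Y-linked genes are unlike male tissue. Ddx3y, also Y-linked, had no probe set of its own in the annotation used. These readings do not settle the sex of the mice, which was not tested further, and the label is kept here. The phenobarbital arrays of knockout replicate 2 and of human CAR replicate 1 had the lowest median correlations to the other arrays, 0.980 and 0.970. The wild-type TCPOBOP pair came next at 0.981 and 0.982, and the rest reached up to 0.991. A fit that leaves 1 mouse in a group takes that group's spread from the remaining groups. As these are whole-liver samples, fewer cells of a type and less RNA per cell cannot be told apart.

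Over the 12 groups 7 of the 10 members changed (F test of limma), where 7.39% of all tested genes did. The F test calls of Cyp7b1 and Socs2 held in only 7 and 6 of the 24 fits that left out 1 array. Averaged over the 4 treatments, Elovl3, Cyp4a12a, Ugt2b38 and Cyp2d9 were lower in knockout than in wild-type livers and Igf1 was higher. TCPOBOP lowered Slco1a1, Cyp7b1 and Igf1 in wild type, and in knockout it raised Cyp4a12a 8.16-fold. The receptor gene Ghr passed in none of the 20 comparisons. Hsd3b5 passed in none either, and had the largest spread between mice of a group among the members.

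**Figure D1:**
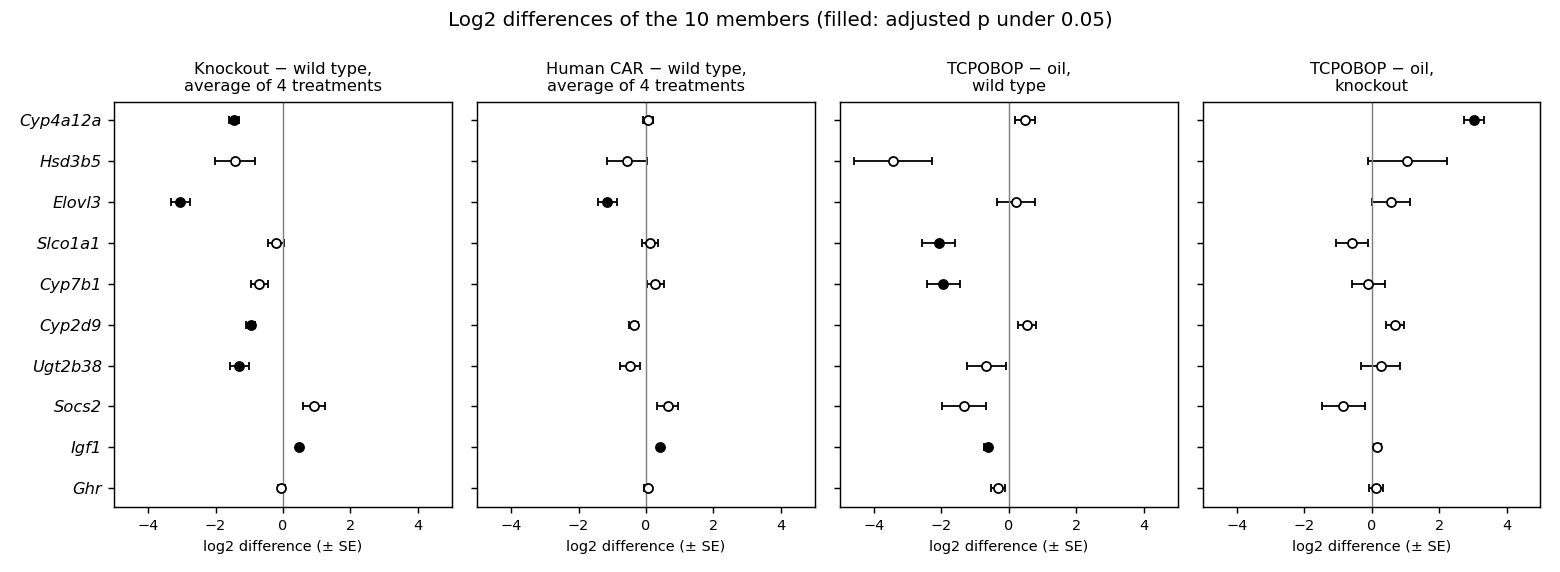
Log2 differences (x axis, ± SE of the limma fit) of the 10 members (y axis) in 4 comparisons, with filled points at adjusted p under 0.05. Elovl3 had the lowest value in knockout against wild type (-3.05), and Cyp4a12a the highest on TCPOBOP in knockout (3.03).

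Ghr, the hormone's receptor, had the narrowest range of the 10. Its main probe set lay between 9.85 and 10.69 in wild type (median 10.21), between 9.72 and 10.48 in knockout (median 10.19) and between 9.81 and 10.59 in human CAR mice (median 10.31). The ranges of the 3 genotypes overlapped. The lowest group mean was 9.89, in wild type on TCPOBOP, where the mice read 9.92 and 9.85 against 10.37 and 10.03 on corn oil. Those 2 pairs did not overlap, but the difference of -0.31 (SE 0.21, adjusted p = 0.431, limma) did not pass. The other 2 Ghr probe sets gave differences of -0.58 (adjusted p = 0.0731) and -0.55 (adjusted p = 0.204) there, also not past the threshold, and their lowest group was the same. Over the 12 groups the F test for Ghr gave an adjusted p of 0.214.

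Socs2, the feedback inhibitor, ranged 22.3-fold over the 24 arrays. Wild-type mice read 7.35 and 6.75 on corn oil, 7.21 and 7.64 on phenobarbital, 8.12 and 5.51 on CITCO, and 6.28 and 5.16 on TCPOBOP. Knockout mice read 8.13 and 7.84 on corn oil, 7.19 and 9.29 on phenobarbital, 7.33 and 7.37 on CITCO, and 7.26 and 7.02 on TCPOBOP. Human CAR mice read 6.66 and 6.86 on corn oil, 9.64 and 9.39 on phenobarbital, 7.19 and 7.36 on CITCO, and 5.89 and 6.17 on TCPOBOP. The human CAR phenobarbital mice were the highest pair of all, and 1 knockout phenobarbital mouse was nearly as high. TCPOBOP gave the lowest group mean within each genotype. In human CAR mice phenobarbital differed from corn oil by 2.75 (SE 0.64, adjusted p = 0.0534, limma), which missed the threshold, as did the second Socs2 probe set (2.72, adjusted p = 0.0805). The main probe set passed without human CAR phenobarbital replicate 2 (2.88, adjusted p = 0.0242), a fit that rests on replicate 1 alone, the array of lowest correlation. Of 6 neutrophil markers 0 were called in that comparison, with a median difference of 0.90. Their mean level was 5.56 in the lower and 7.22 in the higher human CAR phenobarbital mouse, against 5.45 and 5.90 on corn oil. Their part in the Socs2 difference was not tested. No single comparison of Socs2 passed, while its F test over the 12 groups did (adjusted p = 0.0390). The F test failed in 18 of the 24 fits that left out 1 array.

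The 2 arrays of lowest median correlation were among the highest for Socs2. The knockout array of replicate 2 read 9.29 for Socs2, and the human CAR array of replicate 1 read 9.64. The human CAR array of replicate 2 read 9.39. Among the genes most like Socs2 over the 12 group means were Zfp36l1 (r = 0.92), which encodes an mRNA decay factor, Ccnl1 (r = 0.91), a cyclin, and Irs2 (r = 0.91), an insulin receptor substrate. These r values are descriptions over 12 means that share arrays and treatments.

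Igf1, the growth factor, was the steadiest member between mice. Its pooled SD within groups was 0.089, smaller than that of most genes (8.06% of genes had a smaller one). Wild-type mice read 10.51 and 10.46 on corn oil, 10.43 and 10.37 on phenobarbital, 10.47 and 10.49 on CITCO, and 9.90 and 9.79 on TCPOBOP. The TCPOBOP pair lay below every other array of the series. Igf1 fell by 0.63 (1.55-fold, SE 0.10, adjusted p = 0.00117, limma) on TCPOBOP in wild type, and the call held in all 4 fits without 1 of these arrays. The other 2 Igf1 probe sets fell by 0.90 (adjusted p = 0.00570) and 0.73 (adjusted p = 0.0296).

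In knockout mice Igf1 read 10.72 and 10.59 on corn oil and 10.88 and 10.76 on TCPOBOP, a difference of 0.16 (adjusted p = 0.552). The TCPOBOP effect in wild type minus that in knockout was -0.80 (SE 0.15, adjusted p = 0.00714, limma), so the test of the difference itself passed. A second Igf1 probe set passed there too (-1.27, adjusted p = 0.0125), and the remaining one did not (-0.93, adjusted p = 0.0970). Averaged over the 4 treatments Igf1 was higher by 0.47 in knockout (1.38-fold, adjusted p = 4.14e-05) and by 0.40 in human CAR mice (1.32-fold, adjusted p = 3.00e-04) than in wild type. The wild-type TCPOBOP fall enters those averages. By treatment the knockout was higher by 0.18 on corn oil, 0.55 on phenobarbital, 0.17 on CITCO and 0.97 on TCPOBOP. Corn oil alone did not pass (adjusted p = 0.876). All 8 knockout arrays were at or above the highest wild-type array, though the lowest knockout and the highest wild-type array were equal at 2 decimals (10.51). Of the other probe sets, 1 was higher in knockout (0.35, adjusted p = 0.0331) and 1 was not past the threshold (0.22, adjusted p = 0.238).

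**Figure D2:**
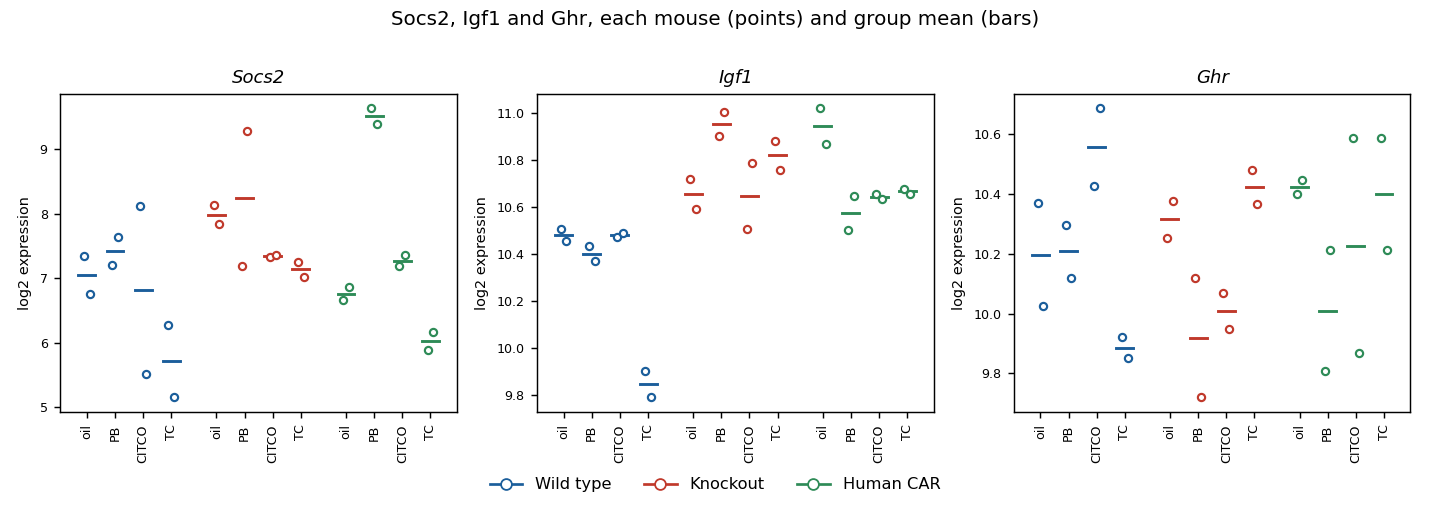
Log2 expression (y axis) of Socs2, Igf1 and Ghr in each mouse (points) with group means (bars), by genotype (colour) and treatment (x axis: oil, corn oil; PB, phenobarbital; TC, TCPOBOP). Igf1 was lowest in the wild-type TCPOBOP pair (9.90 and 9.79), and Socs2 highest in the human CAR phenobarbital pair (9.64 and 9.39).

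The genes between receptor and target were read from a list of 27 growth hormone and IGF signalling genes, of which 24 were tested. TCPOBOP in wild type lowered 2 of the 24, where 2.8% of all genes fell, with a median difference of -0.14 against 0.01 over all tested genes. These were Igfbp4, an IGF binding protein (-0.59, adjusted p = 7.71e-04), and Ptpn11, which encodes the phosphatase SHP2 (-0.29, adjusted p = 0.0428). Phenobarbital in wild type lowered 1, Igfbp4 (-0.48, adjusted p = 0.0164, limma), where 1.47% of all genes were called in either direction. In the average of knockout against wild type 1 of the 24 differed, Igfbp4 (0.22, adjusted p = 0.00789), where 5.95% of all genes did. Whether these counts differ from the shares of all genes was not tested. The TCPOBOP effect on Igfbp4 in wild type minus that in knockout was -0.59 (adjusted p = 0.0255), which passed as well.

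Of the male-biased members, Elovl3 separated wild type from knockout most widely. Wild-type mice read 9.44 and 9.18 on corn oil, 9.70 and 8.85 on phenobarbital, 9.74 and 8.92 on CITCO, and 9.72 and 9.32 on TCPOBOP. Knockout mice read 5.77 and 7.15 on corn oil, 6.25 and 6.17 on phenobarbital, 5.71 and 5.37 on CITCO, and 6.62 and 7.45 on TCPOBOP. Human CAR mice read 5.59 and 7.91 on corn oil, 7.68 and 8.19 on phenobarbital, 9.17 and 9.05 on CITCO, and 8.89 and 9.19 on TCPOBOP. Every knockout array lay below every wild-type array, under each of the 4 treatments. Human CAR mice overlapped with wild type on CITCO and lay below it without overlap on corn oil, phenobarbital and TCPOBOP. On corn oil, replicate 1 minus replicate 2 was -2.32.

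Averaged over treatments, 5 of the 10 members differed between knockout and wild type (4 lower, 1 higher), where 5.95% of all tested genes differed (2.83% lower and 3.12% higher). The members' median difference was -0.83, against 0.01 over all tested genes. Markers of other cells differed there as well: of 11 Kupffer markers 1 was higher (Marco, 0.68) and 2 lower (Cd5l, -0.60, and Adgre1, -0.26), of 8 stellate cell markers Rgs5 was higher (0.79), and of 9 hepatocyte markers Alb was higher (0.23). The list medians were -0.24, 0.03 and 0.14, and their part in the member differences was not tested. Elovl3 was 8.27-fold lower (-3.05, SE 0.28, adjusted p = 3.65e-06, limma), and this held in all 16 fits without 1 array. In human CAR mice 2 of the 10 members differed from wild type, where 2.78% of genes did (1.64% lower and 1.15% higher), and 2 were higher than in knockout, where 0.338% of genes differed and 0.229% were higher. Elovl3 was lower in human CAR mice than in wild type by 1.15 (adjusted p = 0.0351) and higher than in knockout by 1.90 (adjusted p = 0.00331). The first of these was lost in 11 of 16 fits without 1 array and without the 2 arrays of lowest correlation (-1.09, adjusted p = 0.0646). The second held in all 16.

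Cyp4a12a, whose product hydroxylates fatty acids, was low in knockout livers except on TCPOBOP. Wild-type mice read 10.57 and 10.10 on corn oil, 10.38 and 10.36 on phenobarbital, 10.85 and 10.06 on CITCO, and 11.01 and 10.61 on TCPOBOP. Knockout mice read 7.53 and 7.63 on corn oil, 9.53 and 9.01 on phenobarbital, 8.65 and 8.82 on CITCO, and 10.46 and 10.76 on TCPOBOP. Human CAR mice read 9.19 and 10.21 on corn oil, 10.53 and 10.63 on phenobarbital, 11.17 and 10.97 on CITCO, and 11.08 and 10.56 on TCPOBOP. The knockout corn oil pair was the lowest of the series, and the knockout TCPOBOP pair overlapped with wild type. Its probe set could also bind Cyp4a12b, a close copy that has no probe set of its own in the annotation used.

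On corn oil 2 of the 10 members were lower in knockout than in wild type, where 0.142% of all genes were lower and 0.229% differed. Cyp4a12a was lower by 2.76 (6.76-fold, SE 0.30, adjusted p = 2.25e-04), and Elovl3 by 2.85 (7.21-fold, SE 0.56, adjusted p = 0.0446). The Cyp4a12a difference passed in all 4 fits without 1 array. The Elovl3 difference was lost without either wild-type mouse or knockout replicate 1 (adjusted p from 0.176 to 0.534), so it passed in 1 of its 4, and in 4 of 10 other settings of the analysis. Human CAR mice differed from wild type on corn oil in 0 of the 10 members, where 0.0545% of genes differed, and limma's unadjusted p was under 0.05 for 7 members and for 709 of the 9167 genes. With 1 human CAR mouse left on corn oil, replicate 1, 3 members passed, among them Elovl3 (-3.72, adjusted p = 0.00550). Against knockout 1 member was higher, where 0.0436% of genes were higher and 0.12% differed. That was Cyp4a12a (2.12, adjusted p = 0.00735), a call lost without either knockout mouse (adjusted p = 0.0952 and 0.0705) or human CAR replicate 2 (1.61, adjusted p = 0.0634). In the same comparison 2 of 11 tested markers of Kupffer cells, the liver's macrophages, were lower in human CAR mice, Cd163 (-1.23) and Marco (-1.34), with a list median of -0.79. Their mean level was 7.08 to 7.38 in human CAR mice and 7.94 to 8.15 in knockout, and their part in the Cyp4a12a difference was not tested.

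TCPOBOP in knockout raised 1 of the 10 members, Cyp4a12a, where 7 of 9167 genes were called in all (0.0764%) and 0.0327% were higher. The rise was 3.03 (8.16-fold, SE 0.30, adjusted p = 1.82e-04, limma) and passed in all 4 fits without 1 array. In wild type the difference was 0.47 (adjusted p = 0.406). The effect in wild type minus that in knockout was -2.56 (SE 0.42, adjusted p = 0.00288). In that comparison of effects 2 of the 10 members passed, Cyp4a12a and Igf1, both lower in sign, where 0.665% of genes were lower and 1.95% were called. Phenobarbital in knockout raised 1 member, again Cyp4a12a (1.69, adjusted p = 0.0215), where 0.185% of genes rose and 0.731% were called. That call was lost without replicate 2 on phenobarbital, the knockout array of lowest correlation (1.95, adjusted p = 0.0900) and without either corn oil mouse (adjusted p = 0.151 and 0.125). CITCO in knockout raised 0 of 10 members, where 0.0327% of genes were called. Cyp4a12a differed by 1.15 there (adjusted p = 0.219), and limma's unadjusted p was under 0.05 for 3 members and 862 of the 9167 genes.

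Kupffer cell markers moved with the knockout results too. Their mean level over the 11 measured of 12 listed markers was 7.94 to 8.15 in the knockout corn oil mice. It was 6.85 to 7.39 on TCPOBOP, 6.54 to 7.24 on phenobarbital and 7.20 to 7.33 on CITCO. In wild type it was 7.48 to 7.88 on corn oil. Of the 11 markers 1 fell on TCPOBOP in knockout (median difference -0.96) and 4 on phenobarbital (median -1.21). Their part in the Cyp4a12a results was not tested. Hepatocyte markers had medians near 0 on TCPOBOP in knockout (0.10 over 9) and on corn oil between knockout and wild type (-0.01).

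Cyp2d9, a testosterone hydroxylase, also separated knockout from wild type on every array. Wild-type arrays lay between 10.70 and 11.40 (median 11.25), knockout arrays between 9.69 and 10.68 (median 10.24) and human CAR arrays between 9.76 and 11.36 (median 10.93). No knockout array reached a wild-type array, though the gap was small, and human CAR arrays overlapped with both. Averaged over treatments Cyp2d9 was lower in knockout by 0.96 (1.94-fold, SE 0.13, adjusted p = 2.82e-04, limma). Under single treatments the knockout was lower by 0.86 on corn oil, 0.79 on phenobarbital, 1.47 on CITCO and 0.72 on TCPOBOP. The probe set has the suffix _a_at, and Cyp2d genes are close copies, so related transcripts may add to its signal.

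Ugt2b38, a glucuronosyltransferase, read below wild type without overlap in knockout mice under 3 of the 4 treatments. On corn oil alone the difference did not pass (-2.41, adjusted p = 0.184, limma). Wild-type mice read 7.11 and 6.75 on corn oil, 5.52 and 5.18 on phenobarbital, 7.79 and 6.89 on CITCO, and 6.28 and 6.23 on TCPOBOP. Knockout mice read 4.25 and 4.79 on corn oil, 4.17 and 4.65 on phenobarbital, 6.61 and 7.33 on CITCO, and 3.93 and 5.64 on TCPOBOP. Human CAR mice read 4.69 and 6.73 on corn oil, 6.97 and 6.36 on phenobarbital, 5.07 and 5.95 on CITCO, and 5.91 and 6.31 on TCPOBOP. The knockout CITCO pair stood above the other knockout arrays and overlapped with wild type. Of the 24 arrays 6 were under the dim limit, 5 of them knockout, so the lowest values are near background. The average knockout difference was -1.30 (SE 0.29, adjusted p = 0.0114, limma), against knockout values that were mostly under the dim limit. CITCO against corn oil in knockout gave 2.45 (adjusted p = 0.171), which did not pass.

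**Figure D3:**
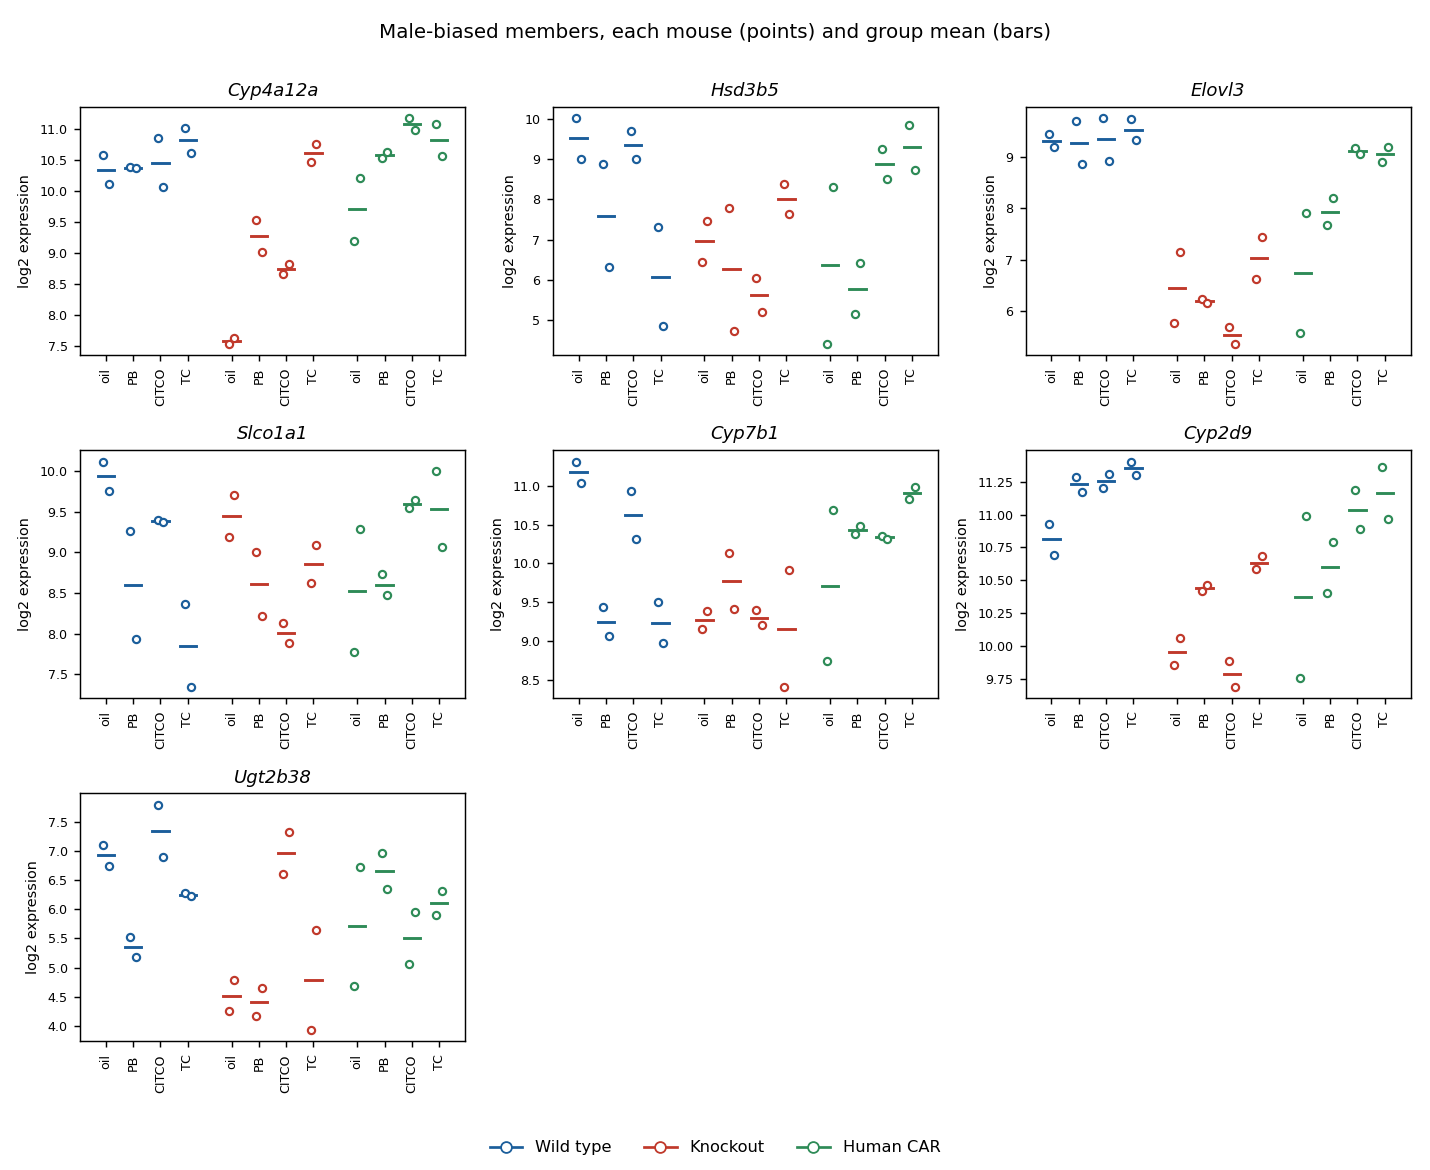
Log2 expression (y axis) of the 7 male-biased members in each mouse (points) with group means (bars), by genotype (colour) and treatment (x axis: oil, corn oil; PB, phenobarbital; TC, TCPOBOP). Elovl3 is lower in all knockout arrays (5.37 to 7.45) than in all wild-type arrays (8.85 to 9.74), and Cyp4a12a reads 7.53 and 7.63 in knockout on corn oil against 10.46 and 10.76 on TCPOBOP.

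TCPOBOP in wild type lowered 3 of the 10 members, where 2.8% of all tested genes fell and 6.14% were called in either direction. The median difference of the members was -0.65, against 0.01 over all genes. Besides Igf1 these were Slco1a1 and Cyp7b1. Slco1a1, the organic anion transporter, read 10.12 and 9.76 on corn oil, 9.27 and 7.93 on phenobarbital, 9.40 and 9.37 on CITCO, and 8.36 and 7.34 on TCPOBOP in wild type. The TCPOBOP pair lay below the corn oil pair and the mice differed by 1.02. Slco1a1 fell by 2.09 on TCPOBOP (4.25-fold, SE 0.48, adjusted p = 0.0143, limma), and its second probe set fell by the same 2.09 (adjusted p = 0.0118). With 1 array left out the first call held in 1 of 4 fits, with differences between -2.59 and -1.58. It was lost without either corn oil mouse or without TCPOBOP replicate 2 (adjusted p = 0.166).

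Cyp7b1, the oxysterol hydroxylase, read 11.32 and 11.04 on corn oil, 9.44 and 9.06 on phenobarbital, 10.93 and 10.32 on CITCO, and 9.50 and 8.97 on TCPOBOP in wild type. The phenobarbital and TCPOBOP pairs were at one level, both below the corn oil and CITCO pairs. The TCPOBOP fall was 1.94 (3.84-fold, SE 0.49, adjusted p = 0.0245). It was lost in all 4 fits without 1 array, where differences ran from -2.21 to -1.68 and the largest adjusted p was 0.171. The second probe set gave -1.46 (adjusted p = 0.0846) and did not pass. On phenobarbital the difference was -1.93 (adjusted p = 0.0638), just outside the threshold. Phenobarbital in wild type thus lowered 0 of the 10 members, where 1.47% of genes were called, and limma's unadjusted p was under 0.05 for 3 members and 1244 of the 9167 genes. The call appeared without the 2 arrays of lowest correlation (adjusted p = 0.0444). CITCO in wild type changed 0 of the 10, where 0.0327% of genes were called and 0 members and 667 genes had an unadjusted p under 0.05 (limma).

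In knockout mice Cyp7b1 read 9.16 and 9.38 on corn oil and 8.40 and 9.91 on TCPOBOP, and Slco1a1 9.19 and 9.71 on corn oil and 8.62 and 9.09 on TCPOBOP. The TCPOBOP effects in wild type minus knockout were -1.83 for Cyp7b1 (SE 0.69, adjusted p = 0.251) and -1.49 for Slco1a1 (SE 0.68, adjusted p = 0.389). The falls in wild type were therefore not shown to differ from the knockout. In human CAR mice on TCPOBOP Cyp7b1 read 10.84 and 10.99 and Slco1a1 10.01 and 9.07, all above the wild-type TCPOBOP pair of the same gene. The main Cyp7b1 probe set has the suffix _s_at, which marks sets that can bind several transcripts.

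Hepatocyte markers in wild type on TCPOBOP had a median difference of -0.22 over 9, and 1 of them fell, the asialoglycoprotein receptor subunit Asgr1 (-0.49, adjusted p = 0.0498). Their part in the falls of Slco1a1, Cyp7b1 and Igf1 was not tested. The wild-type TCPOBOP array of replicate 2 had a median correlation with the other arrays of 0.981, the third lowest.

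Hsd3b5, a steroid-metabolising enzyme, ranged from 4.41 to 10.02, the lowest value being under that array's dim limit. Wild-type mice read 10.02 and 9.01 on corn oil, 8.89 and 6.31 on phenobarbital, 9.71 and 9.01 on CITCO, and 7.31 and 4.85 on TCPOBOP. Knockout mice read 6.45 and 7.46 on corn oil, 7.78 and 4.73 on phenobarbital, 6.03 and 5.21 on CITCO, and 8.38 and 7.62 on TCPOBOP. Human CAR mice read 4.41 and 8.32 on corn oil, 5.15 and 6.42 on phenobarbital, 9.25 and 8.51 on CITCO, and 9.86 and 8.74 on TCPOBOP. On TCPOBOP the wild-type pair lay below the knockout and human CAR pairs, and on corn oil it lay above both. The lowest array of the series was a human CAR corn oil mouse whose partner read 8.32. TCPOBOP against corn oil in wild type differed by -3.44 (SE 1.17, adjusted p = 0.101, limma), and in human CAR mice by 2.94 (SE 1.17, adjusted p = 0.656). Neither passed. Of the 24 arrays 3 were under the dim limit.

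In human CAR mice 0 of the 10 members passed on TCPOBOP, where 0% of genes were called, 0 on phenobarbital, where 0.665% were, and 0 on CITCO, where 0.0873% were. Limma's unadjusted p was under 0.05 for 6, 4 and 6 members, and for 610, 1942 and 687 of the 9167 genes. The members' median differences were 0.90 on TCPOBOP, 0.47 on phenobarbital and 0.64 on CITCO, against 0.01, -0.01 and 0.00 over all genes. These 3 comparisons share the corn oil pair of human CAR mice, in which replicate 1 was low for every male-biased member. Without corn oil replicate 2, so that only the low mouse served as control, 2 members passed on TCPOBOP, 3 on CITCO and 3 on phenobarbital, each against 1 mouse. Elovl3 then differed by 3.45 on TCPOBOP (adjusted p = 0.00939), 3.52 on CITCO (adjusted p = 0.00585) and 2.34 on phenobarbital (adjusted p = 0.0393). The other comparisons of effects passed for 0 of the 10. These were the phenobarbital effect in wild type minus knockout, where 0.153% of genes were called and 3 members and 838 genes had an unadjusted p under 0.05, and in human CAR minus knockout (0.0109%, 2 members and 724 genes). For the CITCO effect in human CAR minus knockout these were 0.0327%, 5 members and 622 genes. There, without human CAR corn oil replicate 2 Elovl3 passed (4.44, adjusted p = 0.00946).

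The spread between mice of a group was itself wide for these genes. The pooled SD within groups was 1.36 for Hsd3b5, 0.75 for Socs2, 0.66 for Ugt2b38 and 0.65 for Elovl3, against a median of 0.143 over the 9167 genes. At least 99.2% of genes had a smaller SD than each of these 4. Cyp7b1 and Slco1a1 followed with 0.56 and 0.55, Cyp4a12a with 0.34, Cyp2d9 with 0.30 and Ghr with 0.23. All members but Igf1 were above the median.

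The male-biased members deviated together. In 5 of the 12 groups all 7 were higher in the same mouse of the pair, which was replicate 1 in wild type on corn oil, phenobarbital and TCPOBOP and replicate 2 in knockout and human CAR on corn oil. In 11 groups at most 2 of the 7 were exceptions. How often other sets of 7 genes lie so was not tested. The human CAR corn oil pair differed most, with replicate 1 minus replicate 2 at -3.91 in Hsd3b5, -2.32 in Elovl3, -2.05 in Ugt2b38, -1.95 in Cyp7b1, -1.51 in Slco1a1, -1.23 in Cyp2d9 and -1.02 in Cyp4a12a. The median size of the difference in that pair was 1.37 over the 10 members and 0.155 over all genes. Socs2 (-0.20), Igf1 (0.15) and Ghr (-0.05) differed little there.

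Over the 12 pairs of mice the differences of the 7 genes correlated positively in all 21 gene pairs, with r from 0.24 to 0.87 and a median of 0.70. In the 24 gene pairs with Socs2, Igf1 or Ghr r ran from -0.46 to 0.53, and 12 were positive. This r was taken about 0, without centring, so the human CAR corn oil pair, which differed most, weighed most for the 7 genes. The gene pairs share the same arrays, so these are descriptions. The mean of 11 other male-biased genes was 8.46 in the lower and 9.46 in the higher human CAR corn oil mouse. No other group had as wide a gap. The mean of 18 female-biased genes ran from 4.99 to 5.27 in the human CAR corn oil pair.

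**Figure D4:**
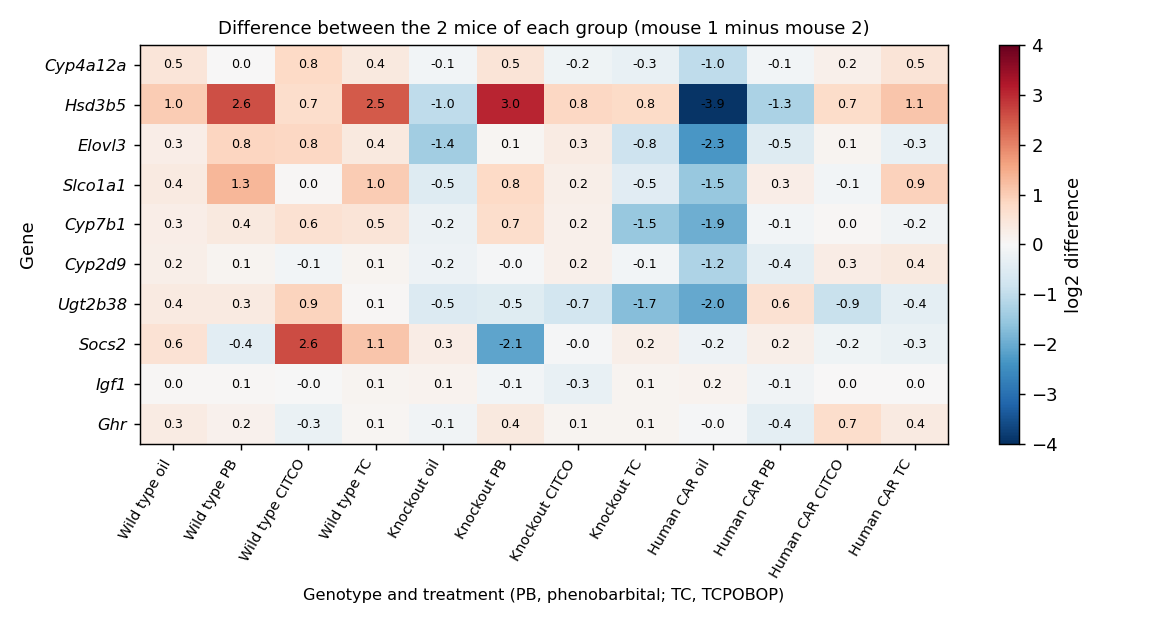
Log2 difference between the 2 mice of each group, replicate 1 minus replicate 2 (colour and number), for the 10 members (rows) in the 12 groups (columns; PB, phenobarbital; TC, TCPOBOP). In the human CAR corn oil column all 7 male-biased members are negative, from -3.91 for Hsd3b5 to -1.02 for Cyp4a12a.

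Lists of sex-biased genes were read beside the members. Of 11 other male-biased genes 3 were lower in the average of knockout against wild type, where 2.83% of all genes were: C6, a complement component (-0.99, adjusted p = 9.89e-05), Ugt2b1 (-0.98, adjusted p = 1.56e-04) and the glutathione transferase Gstp1 (-0.49, adjusted p = 0.00369). In human CAR against knockout 2 of the 11 were higher, where 0.229% of all genes were, C6 (0.75, adjusted p = 0.00797) and Gstp1 (0.46, adjusted p = 0.0408). TCPOBOP in wild type lowered 2, where 2.8% of all genes fell, the receptor gene Egfr (-1.10, adjusted p = 5.07e-04) and Susd4 (-1.64, adjusted p = 0.0189). Of 13 tested female-biased genes 3 were higher and 1 lower in the average of knockout against wild type, where 3.12% and 2.83% of all genes were. Hamp2, a hepcidin gene, was higher by 1.05 (adjusted p = 9.37e-04, limma), and Acot3, an acyl-CoA thioesterase, by 1.01 (adjusted p = 0.0114). In knockout Hamp2 averaged 7.87 on corn oil, 9.96 on phenobarbital and 9.90 on CITCO, against a wild-type average of 8.24. Both ligand rises passed (adjusted p = 0.0144 and 0.0483, limma) and enter the knockout average. Human CAR mice were also higher in Hamp2 than wild type on average, by 1.05 (adjusted p = 0.00212). The probe sets of Hamp2 and Acot3 have the suffixes _x_at and _s_at, so related transcripts may add to their signal. A second Hamp2 probe set was under the dim limit on 14 of the 24 arrays. Acot3 had a median of 5.20 and was under it on 3. The others were Tox and Prom1. TCPOBOP in wild type raised 2 of the 13, Prom1 and Cyp3a44, where 6.14% of all genes were called in either direction and 2.8% fell. Prom1 averaged 7.97 on TCPOBOP and 4.09 on corn oil in wild type (3.88, adjusted p = 1.14e-07, limma). The TCPOBOP pair enters its wild-type average of 5.24, against 4.06 in knockout. Prom1 lay under the dim limit on 20 of the 24 arrays. No differences are given for Tox and Cyp3a44, which lay under it on 22 arrays each.

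Relatives of the members did not all share their direction. Of 21 tested family members 8 differed in the average of knockout against wild type, 3 higher and 5 lower, where 3.12% and 2.83% of all genes were. Cyp4a14, a fatty acid hydroxylase of the Cyp4a12a family, was higher in knockout by 4.04 (adjusted p = 6.01e-06), opposite to Cyp4a12a. Elovl5, a relative of Elovl3 that elongates polyunsaturated fatty acids, was higher by 0.75 (adjusted p = 0.00401), and Cyp2d26 by 0.35 (adjusted p = 9.35e-04). Ugt2b34 was lower (-0.77, adjusted p = 3.08e-06, limma), in the same direction as Ugt2b38. In wild type TCPOBOP raised Ugt2b34 by 1.44 (adjusted p = 4.13e-06) and phenobarbital by 1.09 (adjusted p = 4.49e-04). These rises enter the wild-type average. The knockout average was 10.29, against 10.33 in wild type on corn oil. On corn oil 0 of the 21 family members differed between knockout and wild type, where 0.229% of all genes did.

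The non-member genes whose 12 group means followed a member most closely differed from member to member. Other members were left out of this search, though Elovl3 and Cyp2d9 had r = 0.93 with each other. For Hsd3b5 the closest non-member was the transporter gene Abcg2 (r = 0.95). Elovl3 was followed by Abcb10 (r = 0.93) and Ugt2b1 (r = 0.91), and Cyp2d9 by the same pair (r = 0.92 for Ugt2b1 and 0.90 for Abcb10). Slco1a1 was followed by the clotting factor gene F11 (r = 0.92) and the bile acid enzyme Cyp8b1 (r = 0.90), and Igf1 by Bbip1 (r = 0.92) and the urea cycle enzyme Arg1 (r = 0.92). For Ghr it was Sdhc, a subunit of succinate dehydrogenase (r = 0.92), followed by Crot, a peroxisomal acyltransferase (r = 0.90). The highest r was lower for Ugt2b38 (0.86, Zfp46), Cyp7b1 (0.85, Copb1) and Cyp4a12a (0.84, Evx2). The group means of Evx2 ran only from 5.13 to 5.55, close to the dim limit, and those of Zfp46 from 5.82 to 6.13. Each named gene was picked for a high r among all tested non-members, so these r values are descriptions.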

How the data were processed

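Liver RNA of 24 mice was hybridised to 1 Affymetrix array each, in 12 groups of 2 (3 genotypes by 4 treatments), grouped by their labels. The deposited table held log2 values that the authors computed by RMA under R 2.15.0, per the submitters' processing notes. Values ran from 2.03 to 14.1 with 0 missing. No further normalisation was applied. The number of arrays, not read depth, limits precision.

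Probe sets were named with the platform annotation: 20380 had 1 gene symbol and 691 several, which were left out. Each gene was represented by its probe set of highest mean, and all 17 probe sets of the members were tested as an alternative. The 9167 genes above the 40th percentile of an array in 2 or more mice were kept. A linear model of 12 groups over the 24 arrays (limma 3.58.1, R 4.3.3) left 12 residual degrees of freedom and gave 20 comparisons, with Benjamini-Hochberg adjustment within each and calls at an adjusted p under 0.05. The members were named whatever their p. Up to 5 passing genes per list and comparison, and the 3 non-member genes of highest correlation with a member, could be named besides. The members and lists were chosen with earlier results of these data known. Steps were tested on simulated data. No array was a copy of another: among 276 pairs at most 0.0485% of values were equal. Figures were drawn with Python 3.11.15 and matplotlib 3.10.9. Alternatives were the scaling, dim filters, probe set choice, prior, array weights, replicate block, fewer arrays fitted, and each array left out in turn.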

Additional observations from a re-analysis of the deposited data

Results flagged for a closer look

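The difference between genotypes in the effect of TCPOBOP was tested directly, and 2 members passed. For Cyp4a12a the effect in wild type minus that in knockout was -2.56 on the log2 scale (adjusted p = 0.00288, limma): wild type differed by 0.47 from corn oil and knockout rose by 3.03, and both knockout TCPOBOP mice were above both knockout corn oil mice. For Igf1 it was -0.80 (adjusted p = 0.00714): wild type fell by 0.63, in both mice, and knockout differed by 0.16. Each was called in all 8 fits that left out 1 of the arrays concerned.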

How the results depend on the processing

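With 1 of the arrays compared left out, the number of members called ran from 1 to 2 for TCPOBOP in wild type (3 with all arrays), 1 to 1 for TCPOBOP and 0 to 1 for phenobarbital in knockout, and 0 to 2 for TCPOBOP, 0 to 3 for phenobarbital and 0 to 3 for CITCO in human CAR mice. On corn oil it ran from 1 to 2 for knockout and 0 to 3 for human CAR mice against wild type, and 0 to 2 for human CAR mice against knockout. Over the average of treatments it ran from 5 to 6 for knockout against wild type, 1 to 3 for human CAR mice against wild type and 2 to 4 against knockout, and from 5 to 9 for any change over the 12 groups. For the difference of effects between human CAR mice and knockout it ran from 0 to 2 for CITCO and 0 to 1 for phenobarbital. For that of TCPOBOP between wild type and knockout it was 2 in every fit. The 0 calls in knockout CITCO, wild-type CITCO, wild-type phenobarbital and the phenobarbital effect in wild type minus knockout stayed at 0.

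Other settings gave 192 counts of members, of which 19 moved. Array weights gave 1 for human CAR mice against wild type on average (2 as reported), 2 for CITCO in knockout (0), 0 for phenobarbital in knockout (1) and 1 for phenobarbital in wild type (0). A fit of only the arrays compared gave 1 for phenobarbital in human CAR mice (0), 1 for knockout against wild type on corn oil (2), 2 for phenobarbital in wild type (0) and 5 for TCPOBOP in wild type (3). Knockout against wild type on corn oil also gave 1 in place of 2 with cyclic loess, with every probe set tested, with the mean of probe sets, with a variance trend and robust prior, and with the replicate number as a block. A stricter dim filter gave 1 for phenobarbital in human CAR mice. The trend and robust prior gave 4 for any change over the 12 groups (7) and 1 for human CAR mice against wild type on average. Without the 2 arrays of lowest median correlation the counts were 1 for human CAR mice against wild type on average, 0 for phenobarbital in knockout and 1 for phenobarbital in wild type. The cause of these changes was not tested, apart from the fewer arrays in some fits.

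Of the values of single members 2 reversed: the phenobarbital effect on Hsd3b5 in wild type minus knockout, -1.22 with all arrays, ran from -2.75 to 0.30 with 1 array left out, with 0.30 without knockout phenobarbital replicate 1 and 0.07 without wild type phenobarbital replicate 2. Replicate numbers were not taken to pair the mice, since over 66 pairs of groups the correlation of same-numbered deviations over all genes ran from -0.45 to 0.42, with a median of 0.03, and exceeded 0.1 in 17. Replicate 1 was nonetheless the higher mouse for 7, 7, 6 and 7 of the 7 male-biased members in the wild-type corn oil, phenobarbital, CITCO and TCPOBOP groups. With the replicate block Elovl3 on corn oil, knockout against wild type, had an adjusted p of 0.0508. With 2 mice a group a difference that missed the threshold is not shown to be absent, and some values of Ugt2b38 and Hsd3b5 lie under the dim limit.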
